A study of Homo sapiens with 23 samples.

Results

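The regions described here are subtelomeric peaks: nascent-strand and ChIP peaks that lie at the tips of human chromosomes. A peak was included where its middle lay within 2 Mb of the smallest or largest coordinate that any of 21 deposited peak lists holds on chromosomes 1-22. The short-arm ends of chromosomes 13, 14, 15, 21 and 22, which carry ribosomal and satellite repeats, were left out, so 39 ends remained, 17 on short arms (p) and 22 on long arms (q). These ends held 85399 of 1705765 peaks on chromosomes 1-22, between 1289 and 10165 in a list, or 2.06% to 13.5% of the list. The other 1619382 peaks of the same arms served for comparison. Each list had members within 50 kb of the outermost coordinate at 26 to 39 ends. The ends add up to 78 Mb and the rest of the arms to 2620 Mb.

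The study mapped where DNA replication starts, and where the phosphorylated deacetylase SIRT1 and the phosphorylated helicase subunit MCM2 lie, in 2 established human cancer lines. Start sites were mapped by sequencing nascent strands (NS), short newly made DNA that withstands exonuclease digestion. In HCT116, a colon carcinoma line, nascent strands came from a SIRT1-depleted clone, from a depleted clone that carries SIRT1 with the T530A change (a threonine that can no longer be phosphorylated), from wild-type cells given 200 nM aphidicolin for 24 h and then 24 h of release, and from a depleted clone that carries wild-type SIRT1. ChIP in wild-type HCT116 had 3 targets: T530-phosphorylated SIRT1 (pSIRT1), S139-phosphorylated MCM2 (pMCM2) and the histone mark H4K16ac, acetylation of lysine 16 on histone H4.

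In K562, a chronic myelogenous leukemia line, all cells were wild type. Nascent strands came from fractions in early, middle and late S phase, pSIRT1 from 5 elutriated fractions (G1, the 3 stages of S, and G2) and from unfractionated cells, and pMCM2 from the same 5 fractions. Where 5 values follow each other below without names, they run from G1 over early, middle and late S to G2. Sheared genomic DNA of each line was the control for peak calling, and those 2 control libraries were not analysed here. Each group is 1 library, and each modified HCT116 group is 1 clone, so no spread between replicates exists and no test was made. The intervals given cover counting error only. An untreated HCT116 start-site list was not analysed here, so the aphidicolin list is set against the wild-type rescue clone, and drug and clone cannot be told apart. The HCT116 ChIP lists come from wild-type cells and not from the clones whose start sites are compared with them.

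Subtelomeres lie just inside the telomere repeats. They hold blocks duplicated between chromosomes, and on many arms they then pass into gene-rich, GC-rich DNA, while on a few arms they are gene-poor. SIRT1 removes acetyl groups from proteins, H4K16ac among its histone substrates, and MCM2 is part of the helicase that is loaded before S phase and that opens DNA at replication starts. Reads from duplicated blocks map to more than 1 place. How the authors treated them is not given in the sources used here.

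Start sites of HCT116 were denser at the chromosome ends than in the rest of the arms, and start sites of K562 were sparser. Both ChIP targets were denser at the ends in both lines, and pSIRT1 stood out most. Density is the number of peaks per Mb, the ratio is that at the ends over that in the rest of the same arms, and an end was counted as dense at a ratio of at least 1.5 and as sparse at 1.5-fold below its arm or lower. The background is the share of all 1329 whole 2 Mb windows of these arms, ends included, that pass the same limit against their own arm.

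The SIRT1-depleted clone had 72.1 start sites per Mb at the ends and 39.4 per Mb in the rest of the arms, a ratio of 1.83 (95% interval 1.78 to 1.88). In this list 26 of 39 ends were dense, where 19.6% of all windows were, and 2 were sparse, where 32.9% of windows were. The T530A rescue clone had 52.4 per Mb at the ends and 37.99 per Mb in the rest, a ratio of 1.38 (1.34 to 1.42), with 16 ends dense (windows 16.4%) and 3 sparse (windows 27.1%). Both clones lay above 1, the depleted one further. Aphidicolin-released cells had 43.2 per Mb at the ends and 35.6 per Mb in the rest, a ratio of 1.21 (1.17 to 1.26), with 12 ends dense (windows 15.9%) and 6 sparse (windows 26.1%). The wild-type rescue clone had 36.0 per Mb at the ends and 27.3 per Mb in the rest, a ratio of 1.32 (1.27 to 1.37), with 14 ends dense (windows 18.7%) and 5 sparse (windows 29.0%).

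K562 start sites ran the other way. Early S cells had 19.0 per Mb at the ends and 26.9 per Mb in the rest, a ratio of 0.707 (0.672 to 0.745), and 18 ends were sparse (windows 29.3%) against 6 dense (windows 15.7%). Middle S cells had 20.5 per Mb at the ends and 24.7 per Mb in the rest, a ratio of 0.829 (0.789 to 0.871), with 12 ends sparse (windows 33.7%) and 6 dense (windows 19.0%). Late S cells had 21.2 per Mb at the ends and 30.1 per Mb in the rest, a ratio of 0.706 (0.673 to 0.741), with 16 ends sparse (windows 27.8%) and 2 dense (windows 16.4%). The 3 S-phase fractions therefore had 18, 12 and 16 sparse ends of 39, and for middle S that share was close to the background of 33.7%.

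HCT116 pSIRT1 had 104 peaks per Mb at the ends and 42.8 per Mb in the rest, a ratio of 2.43 (2.38 to 2.49), with 32 of 39 ends dense (windows 24.0%) and 2 sparse (windows 43.3%). HCT116 pMCM2 had 96.5 per Mb at the ends and 52.9 per Mb in the rest, a ratio of 1.82 (1.78 to 1.87), with 27 ends dense (windows 18.4%) and 1 sparse (windows 31.9%). H4K16ac had 130 per Mb at the ends and 82.6 per Mb in the rest, a ratio of 1.58 (1.55 to 1.61), with 19 ends dense (windows 24.2%) and 2 sparse (windows 35.5%). Among the 3 HCT116 ChIP lists pSIRT1 was therefore the most concentrated at the ends.

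In K562 the pSIRT1 ratio was above 2 in every fraction. G1 cells had 73.5 peaks per Mb at the ends and 25.5 per Mb in the rest, a ratio of 2.88 (2.80 to 2.96), with 31 ends dense (windows 21.6%) and 3 sparse (windows 46.5%). Early S cells had 32.6 and 12.3 per Mb at the ends and in the rest, a ratio of 2.66 (2.55 to 2.77), with 32 ends dense (windows 14.8%) and 1 sparse (windows 28.7%). Middle S cells had 43.5 and 8.28 per Mb, a ratio of 5.26 (5.07 to 5.45), with 33 ends dense (windows 21.1%) and 2 sparse (windows 59.7%). The middle S ratio was the highest of the 21 lists, and that list holds a score in place of read counts and the fewest peaks of the pSIRT1 lists, 25133 on chromosomes 1-22. Late S cells had 104 and 41.5 per Mb at the ends and in the rest, a ratio of 2.504 (2.45 to 2.56), with 32 ends dense (windows 22.2%) and 2 sparse (windows 43.1%). G2 cells had 52.3 and 15.3 per Mb, a ratio of 3.42 (3.31 to 3.53), with 32 ends dense (windows 16.3%) and 1 sparse (windows 36.8%). The G2 list holds a score as well. Unfractionated cells had 75.6 and 33.4 per Mb, a ratio of 2.27 (2.21 to 2.33), with 29 ends dense (windows 21.8%) and 2 sparse (windows 43.0%). All 5 elutriated fractions thus had a higher ratio than the unfractionated cells, although peak counts differed up to several-fold between these lists.

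K562 pMCM2 was less concentrated at the ends, and its ratio was highest in G1 and lowest in G2. G1 cells had 16.5 and 8.54 peaks per Mb at the ends and in the rest, a ratio of 1.94 (1.83 to 2.05), with 25 ends dense (windows 21.1%) and 1 sparse (windows 41.2%). Early S cells had 26.7 and 15.4 per Mb, a ratio of 1.74 (1.66 to 1.82), with 23 ends dense (windows 22.3%) and 2 sparse (windows 39.6%). Middle S cells had 18 and 12.6 per Mb, a ratio of 1.42 (1.349 to 1.501), with 17 ends dense (windows 22.2%) and 5 sparse (windows 40.3%). The middle S value was lower than those of G1 and early S, and with 1 library per fraction this difference was not tested. Late S cells had 22.5 and 15.2 per Mb at the ends and in the rest, a ratio of 1.48 (1.41 to 1.55), with 22 ends dense (windows 19.2%) and 5 sparse (windows 34.2%). G2 cells had 33.9 and 29.7 per Mb, a ratio of 1.14 (1.095 to 1.184), with 8 ends dense (windows 18.5%) and 9 sparse (windows 32.6%). In G2 the 8 dense and 9 sparse ends of 39 were near the background shares. The G1 list also holds the fewest peaks of the pMCM2 fractions, 23671 on chromosomes 1-22, and the G2 list the most, 80628. With the higher-scoring 50% of peaks the ratio was 2.63 in G1 and 1.53 in G2. The part of list length in the order of the fractions was not tested.

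**Figure D1:**
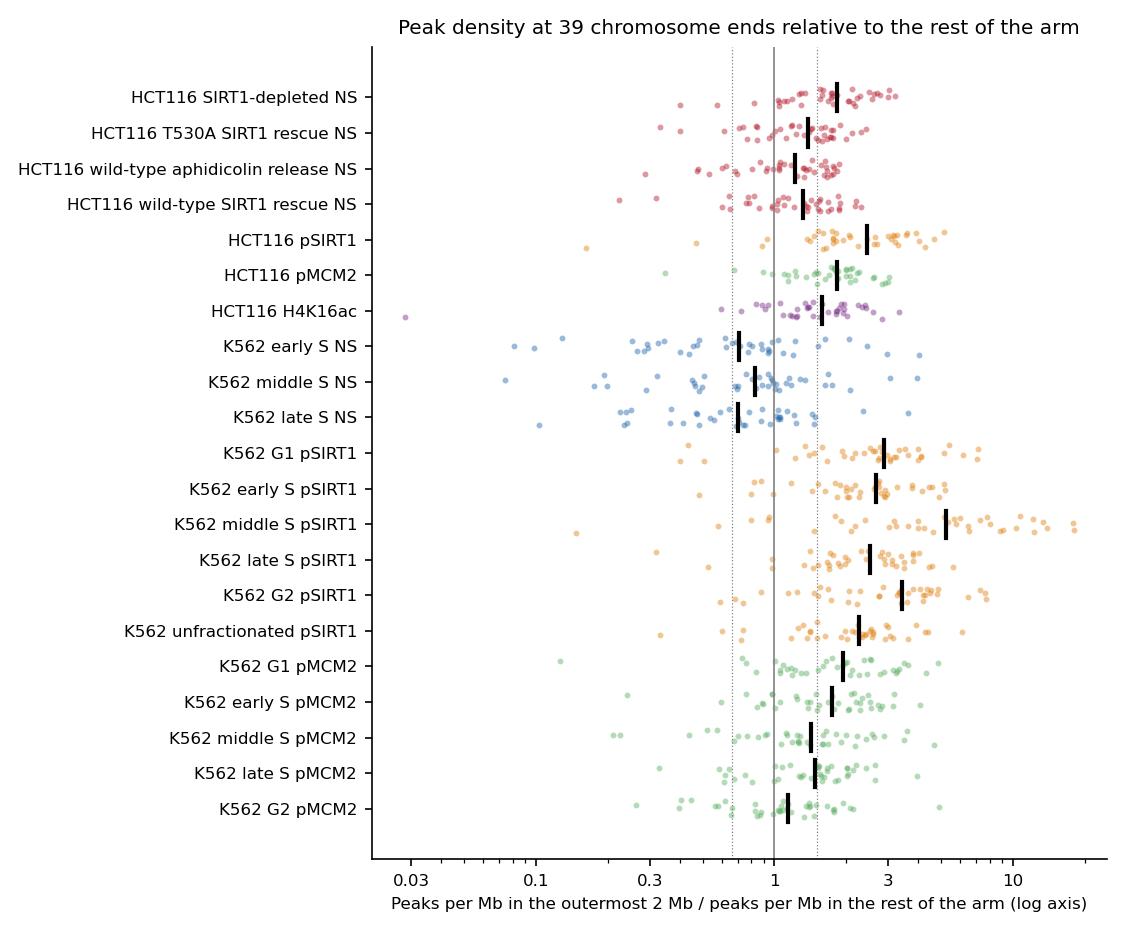
Peak density in the outermost 2 Mb over the density in the rest of the arm (log axis) for 21 lists. Each point is 1 of 39 ends, the black bar is the ratio over all ends together, the solid line marks 1 and the dotted lines a 1.5-fold difference either way. The bars of the 3 K562 start-site lists lie below 1 (0.706 to 0.829) and those of the other 18 lists above 1.

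Over all lists and ends, 614 of 819 ratios were above 1, 444 were dense and 100 sparse. By list, 14.8% to 24.2% of all windows were dense and 26.1% to 59.7% sparse. The density ratio was above 1 in 18 of 21 lists. In pSIRT1 lists the outermost window was often the densest 2 Mb of its whole arm. This held for 15 ends in HCT116 for 17, 20, 19, 16 and 20 ends in the K562 fractions from G1 to G2, and for 10 ends in unfractionated K562 cells, where 2.93% to 3.16% of all windows hold that rank in these lists. By comparison the outermost window was the densest of its arm at 8 ends in the SIRT1-depleted clone, 4 in the T530A clone, 2 in aphidicolin-released cells and 4 in the wild-type rescue clone. In K562 start sites it was the densest at 3, 2 and 1 ends in early, middle and late S phase.

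Density changed with distance from the tip, and not in the same way for each target. For pSIRT1 the outermost 0.25 Mb was less dense than the stretch between 0.5 and 2 Mb. In K562 middle S cells the density relative to the rest of the arms was 3.46 in the outermost 0.25 Mb, 5.69 at 0.5 to 1 Mb, 5.92 at 1 to 1.5 Mb, 3.02 at 3 to 5 Mb and 1.17 at 10 to 20 Mb. HCT116 pSIRT1 followed the same course, with 1.57, 2.61, 2.52, 2.14 and 1.301 over the same stretches. The higher pSIRT1 density thus reached past the 2 Mb limit and kept falling inward. Beyond 20 Mb the relative density was 0.74 in K562 middle S cells and 0.80 in HCT116.

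K562 start sites had the opposite course. In early S cells their relative density was 1.15 in the outermost 0.25 Mb, 0.72 at 0.25 to 0.5 Mb, 0.55 at 1 to 1.5 Mb, 0.90 at 3 to 5 Mb and 1.02 at 5 to 10 Mb. Late S cells had 1.095, 0.68, 0.63, 0.89 and 1.05 over these stretches, and middle S cells had 1.27, 0.77, 0.72, 1.002 and 1.104. The sparse zone of K562 start sites therefore began about 0.25 Mb inside the tip and lay on the same stretch where pSIRT1 was densest. Relative density was back at 1 by 3 to 5 Mb from the tip in middle S cells, and by 5 to 10 Mb in early and late S cells.

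The limit of 2 Mb cut through these gradients. Just inside it, at 1.5 to 2 Mb, the SIRT1-depleted clone had 73.6 start sites per Mb, and just outside, at 2 to 2.5 Mb, it had 71.6 per Mb. In the T530A, aphidicolin and wild-type rescue lists density rose inward. At 3 to 5 Mb they had 56.4, 49.4 and 41.0 start sites per Mb, against 52.4, 43.2 and 36.0 per Mb at the ends. HCT116 pSIRT1 had 113 peaks per Mb just inside and 101 per Mb just outside, and K562 G2 pSIRT1 had 55.5 and 47.4 per Mb. K562 early S start sites stood at 17.8 per Mb just inside and 20.5 per Mb just outside.

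**Figure D2:**
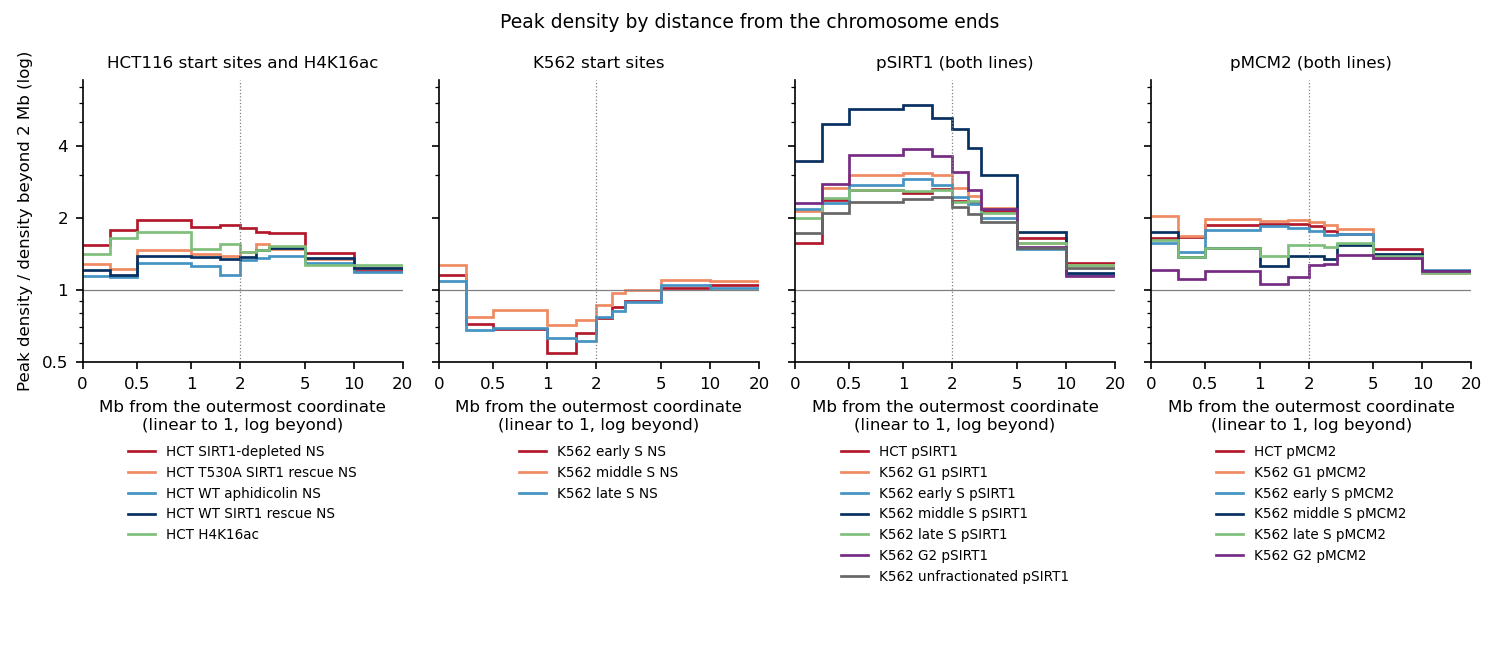
Peak density in steps of distance from the outermost coordinate (horizontal axis in Mb, linear to 1 and logarithmic beyond), as a multiple of the density beyond 2 Mb (log axis), summed over 39 ends. Lines are peak lists and the dotted line marks 2 Mb. K562 middle S pSIRT1 peaks at 5.92 between 1 and 1.5 Mb, where K562 early S start sites are at their lowest, 0.55.

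Within HCT116, the SIRT1-depleted clone had the highest start-site ratio at 32 of 39 ends, aphidicolin-released cells at 5, and the T530A and wild-type rescue clones at 1 each. The share of all windows in which each list ranked first was not computed. The ratio of the depleted clone was above that of the wild-type rescue clone at 36 of 39 ends, where it was in 45.4% of all windows, with a median of 1.28 over the ends. It was at least 1.5 times higher at 14 ends (windows 6.55%) and 1.5-fold lower at 0 (windows 3.31%). Against the T530A clone it was higher at 36 of 39 ends too (windows 43.4%), and at least 1.5 times higher at 7 (windows 2.71%), with a median of 1.31. The T530A clone itself was above the wild-type rescue clone at 28 of 39 ends (windows 53.2%), with a median of 1.05 and 1 end, 10q, at least 1.5 times higher (windows 5.64%). Aphidicolin-released cells were above the wild-type rescue clone at 12 of 39 ends (windows 54.3%), with a median of 0.939.

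The depleted list also differed in size. It holds 108867 peaks on chromosomes 1-22, against 103621 in the T530A clone, 96763 in aphidicolin-released cells and 74321 in the wild-type rescue clone, and the part of list length in the ratio was not tested. Reads in its regions at the ends made up 9.72% of all reads in its regions, against 5.71%, 3.96% and 5.20% in the T530A, aphidicolin and wild-type rescue lists.

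The order of the ends was similar in the 4 HCT116 start-site lists. Spearman's rank correlation across 39 ends was 0.94 between the T530A and wild-type rescue clones, 0.88 between aphidicolin-released cells and the wild-type rescue clone and 0.80 between the depleted and wild-type rescue clones. These are descriptions over ends that share cell line, genome map and control. Between the depleted clone and HCT116 pSIRT1 the correlation was 0.84, while between the wild-type rescue clone and HCT116 pSIRT1 it was 0.65.

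In K562, the pSIRT1 ratio of middle S cells was above that of G1 cells at 35 of 39 ends (windows 28.1%) and at least 1.5 times higher at 25 (windows 9.41%), with a median of 1.71 over the ends. G2 cells were above G1 cells at 28 ends (windows 59.3%), with a median of 1.15. Early S cells were above G1 cells at 14 ends (windows 60.6%, median 0.911) and late S cells at 14 ends (windows 50.2%, median 0.849). The lists above G1 at most ends, middle S and G2, hold scores, while G1, early S and late S hold read counts. Phase and kind of list therefore cannot be told apart here. For pMCM2 the later fractions were lower at most ends. The ratio was above that of G1 cells at 15 of 39 ends for early S (windows 51.9%, median 0.913) and at 10 for middle S (windows 51.5%, median 0.787). It was above at 8 ends for late S (windows 58.5%, median 0.755) and at 8 for G2 cells (windows 58.8%, median 0.595). In G2, 24 ends were at least 1.5 times lower than in G1 (windows 17.2%) and 3 at least 1.5 times higher (windows 29.6%). The pMCM2 lists also differ in length, and its part in these differences was not tested. Among start-site fractions of K562, late S was above early S at 20 of 39 ends (windows 52.0%, median 1.08), near the background. Middle S was above early S at 29 ends (windows 49.6%, median 1.24).

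The ends differed widely among themselves. Long-arm ends had the higher median pSIRT1 ratio, 2.45 on long arms and 1.94 on short arms in HCT116, and 5.83 and 3.61 in K562 middle S cells. The median ratio over the 21 lists was above 1 at 35 of 39 ends and ranged between 0.330 at 3p and 3.01 at 13q. At 7 ends (3q, 4p, 4q, 6q, 11q, 13q and 20p) all 21 lists were above 1 (windows 7.22%), and at 1 end, 3p, all 21 were below 1 (windows 20.9%). Genes are named below by their order in RefSeq GRCh38.p14, the outermost protein-coding genes at each end, and no peak was placed at a gene.

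The 6 lowest ends were 3p, 18p, 19q, 1q, 20q and 17q. At 3p, whose outermost genes include CHL1 and CNTN6 for neural cell adhesion proteins, the SIRT1-depleted clone had 29 start sites in 2 Mb, the T530A clone 23, aphidicolin-released cells 33 and the wild-type rescue clone 16. HCT116 pSIRT1 had 12 peaks at 3p, pMCM2 16 and H4K16ac only 4, or 2.0 per Mb against 70.8 per Mb in the rest of the arm. K562 middle S pSIRT1 and G1 pMCM2 each had 2 peaks there. K562 start sites at 3p numbered 39, 13 and 37 in early, middle and late S, with ratios of 0.806, 0.289 and 0.704, and K562 early S pSIRT1 stood nearest to its arm, at 0.823. So all lists were below 1 at 3p, with start sites and pSIRT1 of K562 early S cells nearest to it.

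At 18p, with TUBB8B and the proteasome-bound deubiquitinase gene USP14 near the tip, the median ratio was 0.723 and 5 of 21 lists were above 1. The 4 HCT116 start-site lists stood at 0.577 in the depleted clone, 0.614 in the T530A clone, 0.683 in aphidicolin-released cells and 0.603 in the wild-type rescue clone, and the K562 lists at 1.19, 1.18 and 1.04 in early, middle and late S phase. At 19q, which ends in MZF1, UBE2M, CHMP2A and TRIM28 (the corepressor of KRAB zinc-finger proteins), the median was 0.835. That end was not poor in peaks: its median density was 36.5 per Mb against 45.5 per Mb in the rest of 19q, one of the densest arms. At 1q, with PGBD2 and several zinc-finger genes, the median was 0.855. At 20q (PCMTD2, MYT1 and the opioid-receptor-like gene OPRL1) it was 1.001, and at 17q (METRNL and TBCD, a tubulin cofactor) 1.04.

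At 2 of these 6 ends the lists held opposite values. At 20q the K562 start-site ratios were 0.0983, 0.176 and 0.238 in early, middle and late S, whereas the 7 pSIRT1 lists of both lines ranged between 1.60 and 3.99. At 17q K562 start sites ranged between 0.128 and 0.234 and pSIRT1 between 1.60 and 3.16. The median over lists thus stood near 1 at 20q and 17q with lists far on either side of it.

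The 6 highest ends were 13q, 4q, 7p, 6q, 7q and 20p. At 13q, which ends in CHAMP1, UPF3A and CDC16 (a subunit of the anaphase-promoting complex), pSIRT1 was 4.64 times denser than in the rest of the arm in HCT116 and 17.9 times in K562 middle S cells, where 77 peaks lay at the end against 202 in all the rest of the arm. HCT116 start sites at 13q had ratios of 3.02 in the depleted clone, 2.29 in the T530A clone, 1.85 in aphidicolin-released cells and 2.19 in the wild-type rescue clone. At 4q, whose tip holds DUX4 (an embryonic transcription factor normally silent in somatic cells) and FRG1, the median ratio was 2.91. The end itself was not rich: its median density was 22 per Mb against 6.78 per Mb in the rest of the arm. Ratios at 4q and 13q were therefore high on sparse arms.

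The end 4q was also where K562 start sites reached their highest ratios, 4.05, 3.96 and 3.61 in early, middle and late S, with 50, 42 and 53 sites. The 4 HCT116 start-site lists had 2.13 in the depleted clone, 1.18 in the T530A clone, 1.17 in aphidicolin-released cells and 1.14 in the wild-type rescue clone. At 20p, which begins with the beta-defensin genes DEFB125 to DEFB128, all 21 lists were above 1.5, K562 start sites at 2.95, 3.06 and 2.36 in early, middle and late S. At 6q (PDCD2, the TATA-binding protein gene TBP and the proteasome gene PSMB1) the median was 2.53, and at 7q (VIPR2, DYNC2I1 and ESYT2) 2.52.

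At 7p, with FAM20C, a kinase of secreted proteins, near the tip, the lists split by line. HCT116 start sites had ratios of 2.55 in the depleted clone, 1.99 in the T530A clone, 1.56 in aphidicolin-released cells and 1.88 in the wild-type rescue clone. K562 start sites had 0.345, 0.507 and 0.538 in early, middle and late S, with 20, 26 and 36 sites in 2 Mb. The pSIRT1 peaks were dense at 7p in both lines, 4.04 times the arm in HCT116 and between 3.82 and 13.3 times in K562.

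**Figure D3:**
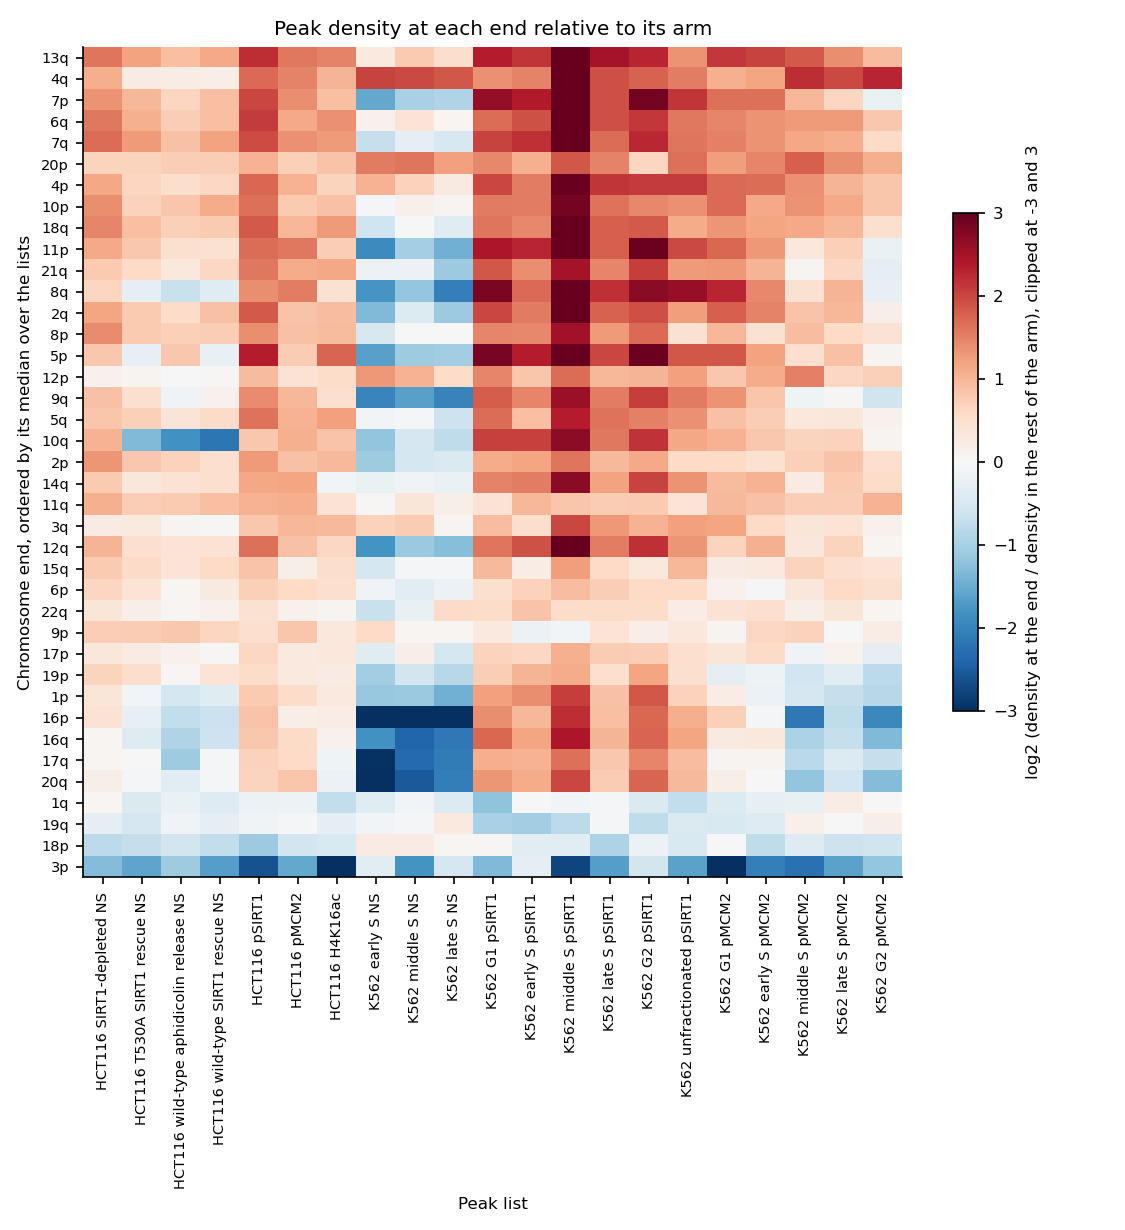
log2 of peak density at each of 39 ends over the density in the rest of its arm, for 21 lists (columns) and ends ordered by their median (rows). Red is denser than the arm and blue sparser, and the colours are clipped at 3 either way. The row of 3p is blue in all 21 columns, and the 3 K562 start-site columns are blue at 16p, 16q, 17q and 20q where the pSIRT1 columns are red.

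Sparse start sites beside dense pSIRT1 were found at K562 ends more often than in the windows as a whole. At 23 of 39 ends all 3 K562 start-site lists were below 1 (windows 43.6%), and at 26 ends all 6 K562 pSIRT1 lists were at least 1.5 (windows 10.5%). Both held at 18 ends, where they did in 4.67% of windows. At 11 ends all 3 start-site lists were sparse (windows 21.4%), and at each of those 11 all 6 pSIRT1 lists were dense, which held in 1.96% of windows. The extreme was 16p, with 5, 5 and 6 start sites in early, middle and late S, ratios of 0.0806, 0.0744 and 0.103, and 247, 77, 165, 312 and 186 pSIRT1 peaks from G1 to G2. The pMCM2 lists changed by phase at 16p, with 40, 48, 9, 25 and 24 peaks from G1 to G2 and ratios of 1.65, 0.978, 0.226, 0.586 and 0.262.

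Across the 39 ends, Spearman's rank correlation between K562 late S start sites and pSIRT1 was -0.33, -0.27, -0.21, -0.07 and -0.43 from G1 to G2. Between the same start sites and pMCM2 it was 0.01, 0.16, 0.62, 0.41 and 0.77 from G1 to G2. These points share a cell line, a genome map and a control library. So the correlation with these start sites was highest for pMCM2 of G2 and middle S cells, and was negative for pSIRT1 of all 5 fractions. With middle S start sites the pSIRT1 values were -0.15, -0.17, -0.04, 0.12 and -0.26 from G1 to G2, so the sign was not the same for late S pSIRT1.

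For start sites the 2 lines shared little of their order of ends. The correlation between HCT116 and K562 start-site lists was lowest, 0.05, for the depleted clone with early S cells and highest, 0.50, for aphidicolin-released with middle S cells, against 0.88 to 0.91 among the 3 K562 lists. For pSIRT1 the order was shared: HCT116 pSIRT1 correlated with the 6 K562 pSIRT1 lists between 0.79 (G2) and 0.92 (late S). The 2 lines share the genome map but not the control. All 4 HCT116 start-site lists were above 1 at 25 of 39 ends (windows 38.9%), and at 12 of these (2p, 2q, 5q, 6p, 7p, 7q, 11p, 12q, 14q, 15q, 19p and 21q) all 3 K562 lists were below 1, where 9.41% of all windows showed this split. The reverse held at 1 end, 18p (windows 7.90%).

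HCT116 start sites at 10q set the clones apart. The depleted clone had 186 start sites in the outermost 2 Mb, the T530A clone 32, aphidicolin-released cells 22 and the wild-type rescue clone 13, and the ratios were 2.05, 0.401, 0.286 and 0.222. From 2 to 4 Mb the counts were 85, 15, 9 and 3 in the same order, and from 4 to 6 Mb they were 164, 112, 96 and 86. The gap between the depleted clone and the other lists was thus widest in the outer 4 Mb of 10q and much smaller from there inward. The ratio of the depleted clone exceeded that of the wild-type rescue clone 9.25-fold at 10q, more than at any other of the 39 ends. ChIP peaks of wild-type HCT116 cells were dense there, with ratios of 1.76 for pSIRT1, 2.08 for pMCM2 and 1.81 for H4K16ac.

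At 5p the lists differed in the rest of the arm more than at the end. The depleted clone had 76.0 start sites per Mb at the end and 43.4 per Mb in the rest of 5p, and aphidicolin-released cells had 55.0 and 31.2 per Mb. The T530A clone had 94.5 and 112 per Mb, and the wild-type rescue clone 73.0 and 85.0 per Mb. The rest of 5p differed up to 3.60-fold between these lists and the end up to 1.72-fold. The ratio was below 1 in both rescue clones, 0.841 in T530A and 0.859 in wild type, where the rest of the arm was denser than the end.

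**Figure D4:**
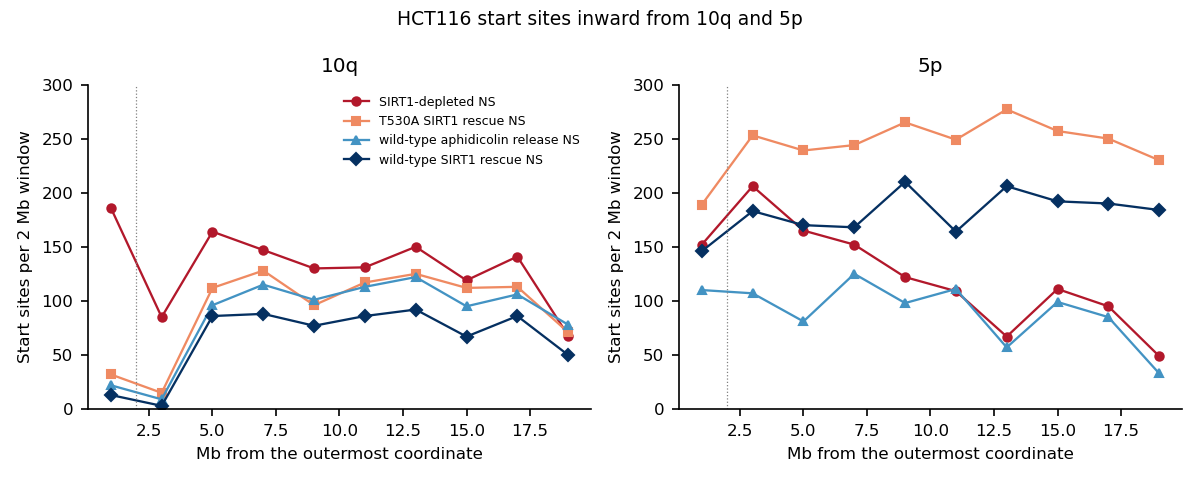
Start sites per 2 Mb window in 4 HCT116 lists, by distance from the tip of 10q (left) and 5p (right), with the dotted line at 2 Mb. In the outermost window of 10q the depleted clone has 186 sites and the wild-type rescue clone 13. On 5p every window shown holds at least 189 sites in the T530A clone and at least 146 in the wild-type rescue clone.

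Peaks at the ends had higher values than peaks elsewhere. Each peak was given its percentile among the values of its own list, so that lists in read counts and lists in scores can be read side by side. The median percentile was higher at the ends in 21 of 21 lists. Start sites at the ends had medians of 71.9 in the depleted clone, 65.1 in the T530A clone, 57.7 in aphidicolin-released cells and 61.7 in the wild-type rescue clone, where the rest of the arms had 49.0 to 49.8. K562 start sites at the ends, though sparse, had medians of 56.6, 60.7 and 62.2 in early, middle and late S, where the rest had 49.5 to 50.3. So the few K562 start sites at the ends were not weak ones.

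Of the HCT116 ChIP lists, pSIRT1 had a median percentile of 63.8 at the ends and 49.2 in the rest, pMCM2 57.6 and 50.01, and H4K16ac 67.5 and 49.5. K562 pSIRT1 had 63.5, 62.0, 61.8, 67.0 and 52.4 at the ends from G1 to G2, and 60.8 in unfractionated cells, where the rest had 48.2 to 50.2. K562 pMCM2 had 67.5, 72.0, 68.2, 74.3 and 70.3 from G1 to G2, where the rest had 46.5 to 50.2. The pMCM2 peaks at K562 ends thus ranked high in every fraction, also in G2, where their density was close to that of the arms.

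The share of members in the top 10% of the list was above that of the other peaks in all 21 lists. In the depleted clone 25.1% of members (95% Wilson interval 24.0% to 26.2%) were in the top 10% of the list, against 9.15% of peaks in the rest. K562 G2 pMCM2 had 25.4% (23.8% to 27.1%) against 9.44%, and K562 G2 pSIRT1, at the low end, 11.9% (10.9% to 12.9%) against 9.81%.

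Peak width differed as well. The median width was larger at the ends in 15 lists and equal in 6, the 3 K562 start-site lists and pMCM2 of K562 G1, middle S and late S cells. Median widths were 3400 bp at the ends and 2400 bp in the rest in the depleted clone, and 4200 bp and 3800 bp in the wild-type rescue clone. For K562 pSIRT1 they were 1600 bp and 600 bp in G2 and 800 bp and 400 bp in early S. With values taken per kb of peak, the percentile stayed higher at the ends in 18 lists. The 3 exceptions were H4K16ac, K562 early S pSIRT1 and K562 G2 pSIRT1. They had 43.7, 49.1 and 31.7 at the ends and 50.3, 50.03 and 51.6 in the rest. In some of the 18 lists the step was small per kb. It was 50.3 and 49.95 in HCT116 pSIRT1, 50.7 and 49.6 in K562 G1 pSIRT1, and 51.3 and 49.5 in HCT116 pMCM2. In others it stayed large, as in the depleted clone, with 66.8 and 49.0.

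Start-site percentiles were very uneven by end. In the T530A clone they were lowest at 3p, with a median of 17.8, and highest at 17q, with 99.0. In the wild-type rescue clone they were highest at 17q too, 98.8, and in the depleted clone 95.9 at 17q. K562 start sites had their highest medians at 7p in early S (87.6) and late S (87.9) and at 7q in middle S (88.8). These values refer to ends with at least 20 members in the list.

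Over the 39 ends together, peaks covered a larger share of the ends than of the rest of the arms in 18 of 21 lists, and a smaller one in the 3 K562 start-site lists. HCT116 pSIRT1 covered 30.7% of the ends and 9.67% of the rest of the arms, and H4K16ac 39.8% and 13.3%. Start sites of the depleted clone covered 36.7% of the ends and 13.5% of the rest, and those of the wild-type rescue clone 22.3% and 13.5%. K562 late S pSIRT1 covered 29.3% and 8.75%, whereas K562 late S start sites covered 5.09% and 7.16%. By covered length the ratio grew to 3.001 for H4K16ac, 4.43 for K562 early S pSIRT1 and 6.12 for K562 G2 pSIRT1.

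Start sites at the ends overlapped ChIP peaks more often than start sites elsewhere. An overlap of at least 1 bp counted. The share of start sites was higher at the ends in all 45 pairs of a start-site list with a ChIP list of the same line. With pSIRT1 it was 80.6% at the ends and 61.9% in the rest in the depleted clone, 78.4% and 52.0% in the T530A clone, 75.5% and 50.6% in aphidicolin-released cells, and 82.0% and 57.4% in the wild-type rescue clone. With pMCM2 it was 63.7% and 53.0% in the depleted clone, and 67.7% and 53.5% in the wild-type rescue clone. With H4K16ac it was 90.9% and 76.4% in the depleted clone, and 90.5% and 73.1% in the wild-type rescue clone. So most HCT116 start sites at chromosome ends lay at places where wild-type HCT116 cells had H4K16ac and pSIRT1 peaks. The ChIP lists do not show what the clones themselves carried there.

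K562 shares were lower. Start sites of late S cells overlapped late S pSIRT1 in 52.8% at the ends and 28.7% in the rest, and middle S pSIRT1 in 24.8% and 5.45%. Start sites of early S cells overlapped early S pSIRT1 in 16.8% and 7.01%, and early S pMCM2 in 16.6% and 11.8%. The step between ends and rest was thus larger for pSIRT1 than for pMCM2 in these pairs.

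By end, the pSIRT1 share of start sites in the depleted clone was highest at 17q, 97.2%, and lowest at 3p, 17.2%, with 34 of 39 ends above the rest of their arm. In the wild-type rescue clone it was 100% at 16p and 35.7% at 18p, with 33 of 37 ends with at least 20 members above the rest. In K562 the share of middle S start sites that overlapped late S pSIRT1 was highest at 22q, 90%, and lowest at 18p, 21.5%. The lowest of these shares thus lay at 3p or 18p. At 3p the wild-type rescue clone and K562 middle S cells had under 20 start sites, so that end was not ranked in these lists.

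The other direction gave another answer. The share of ChIP peaks that overlapped a start site was higher at the ends in 7 of 45 pairs. For HCT116 pSIRT1 it was 77.0% at the ends and 67.5% in the rest with start sites of the depleted clone, but 50.8% and 54.3% with the T530A clone, 36.5% and 49.2% with aphidicolin-released cells, and 43.4% and 49.6% with the wild-type rescue clone. In K562, 11.6% of late S pSIRT1 peaks at the ends overlapped a late S start site, against 21.9% in the rest, and for late S pMCM2 the values were 24.5% and 31.8%. In all 33 K562 pairs the share was lower at the ends. In each pair most K562 pSIRT1 peaks therefore had no start site of the paired list on them, at the ends as in the rest. Overlap with all K562 start-site lists together was not computed.

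The fold of shared bases, which divides the bases covered by both lists by the product of the covered shares, was higher at the ends in 5 of 45 pairs. For the depleted clone with pSIRT1 it was 2.11 at the ends and 5.09 in the rest, and for the wild-type rescue clone 1.88 and 3.88. For K562 late S start sites with late S pSIRT1 it was 1.20 and 2.01, and with late S pMCM2 4.18 and 3.93. The higher share of start sites on ChIP peaks at the ends thus came with ChIP peaks that cover more of the ends. The fold was lower at the ends in 40 pairs. It cannot exceed the inverse of the larger covered share, so its ceiling is lower where lists cover more. Start sites of the depleted clone covered 36.7% of the ends and 13.5% of the rest. In pairs with such wide coverage the fold cannot show whether the association differed between ends and rest.

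**Figure D5:**
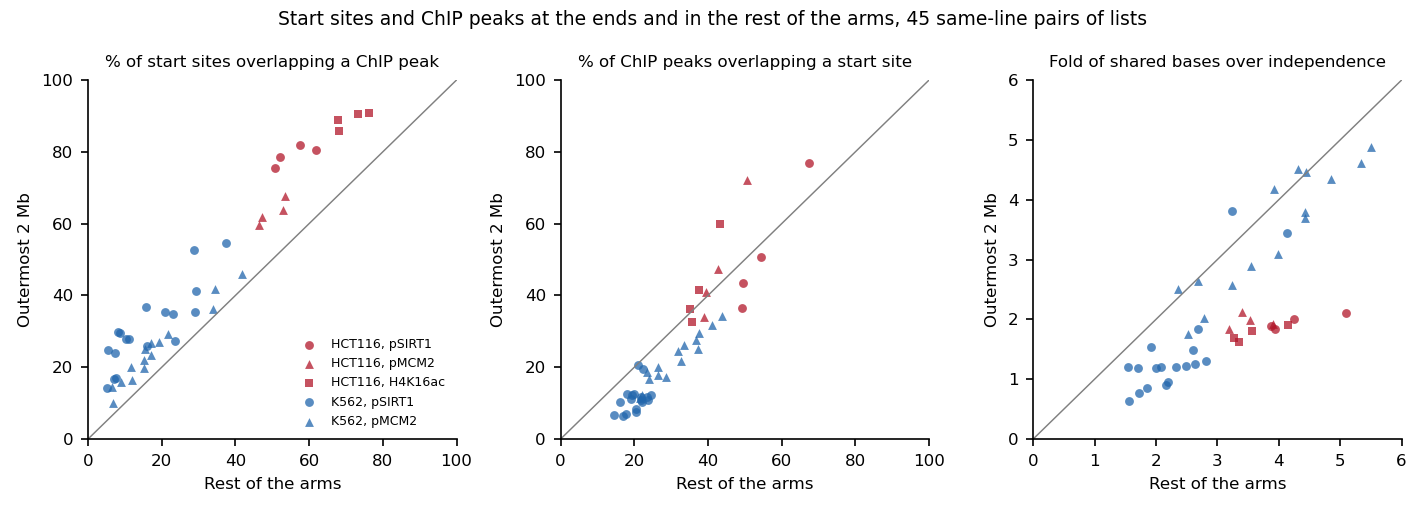
Each point is a start-site list paired with a ChIP list of the same line (45 pairs), with the value in the outermost 2 Mb on the vertical axis and that in the rest of the arms on the horizontal axis. Left, percent of start sites that overlap a ChIP peak, with all points above the diagonal. Middle, percent of ChIP peaks that overlap a start site, with 7 points above it. Right, fold of shared bases over independence, with 5 points above it.

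Start-site lists were also compared with each other. Of start sites at the ends in the depleted clone, 46.3% overlapped one of the wild-type rescue clone, against 51.5% in the rest of the arms, and of those of the wild-type rescue clone 84.0% overlapped one of the depleted clone, against 66.1%. The T530A and wild-type rescue clones shared 60.9% of T530A and 78.1% of wild-type rescue start sites at the ends, against 57.7% and 71.5% in the rest. Between the lines fewer HCT116 start sites were shared at the ends. Of those in the wild-type rescue clone, 23.8% overlapped a K562 late S start site at the ends, against 40.0% in the rest, while of the K562 late S sites 42.1% overlapped one of the wild-type rescue clone, against 39.5%. Most wild-type rescue start sites thus overlapped no K562 late S start site, at the ends as in the rest, and the share without one was larger at the ends. Overlap with all K562 start-site lists together was not computed.

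At the phosphorylated proteins themselves, 53.4% of HCT116 pSIRT1 peaks at the ends overlapped an unfractionated K562 pSIRT1 peak, against 43.0% in the rest, and 80.7% of the K562 peaks overlapped an HCT116 one, against 57.6%. So the pSIRT1 peaks of the ends were shared between the lines more often than elsewhere, on stretches where both lists cover more.

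All member peaks that touch were joined over the 21 lists into 8050 regions. Of these 2011 (24.98%) came from 1 list, 1783 (22.1%) from at least 11 lists and 54 from all 21. No start-site list was present in 2763 regions (34.3%), and all 7 were in 264. The 54 regions in all lists had a median width of 26100 bp, against 3000 bp over all regions, so wide regions hold more lists. The ends 5p and 7q had 5 such regions each, and 20p had 4.

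The 5 regions of all 21 lists with the highest mean percentile are given with hg19 coordinates. They were chr5:277401-287600 on 5p, with a mean percentile of 91.8, chr6:170047801-170052600 on 6q (90.6), chr7:1299001-1319800 on 7p (88.3), chr1:249181201-249188800 on 1q (87.3) and chr7:330338-347199 on 7p (84.8). At chr5:277401-287600 the start-site counts were 1256 reads in the depleted clone, 639 in the T530A clone, 440 in aphidicolin-released cells and 640 in the wild-type rescue clone, and 593, 882 and 683 in K562 early, middle and late S. The lowest of these 7 stood at percentile 97.0 of its list. The region on 1q, 55.5 kb from the outermost coordinate, was unlike it: its H4K16ac score stood at percentile 99.98, while its start-site counts were 188 reads in the depleted clone and 70 in the wild-type rescue clone, percentiles 74.2 and 6.61.

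The member with the highest value was the same place in many lists. A region about 99 kb from the tip of 18p, chr18:105201-112600 in 4 lists and with edges slightly off these in 5 others, was the top member in 9 of 21 lists. It held 42327 reads in the SIRT1-depleted clone and 3321 in HCT116 pSIRT1, scored 3510 in H4K16ac, and held 2263, 3270, 8658, 5115 and 16178 reads in K562 pMCM2 from G1 to G2. It was therefore prominent at an end that was otherwise among the poorest in peaks. Its level in the genomic DNA controls was not analysed here.

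A stretch on 1p that begins at chr1:564401 was the top member in 4 lists, all of K562, with 10245, 21351 and 8967 reads at start sites of early, middle and late S and 4645 reads in unfractionated pSIRT1. In K562 G1 pSIRT1 the top member was chr5:9801-12000, the outermost peak of 5p, with 13267 reads, the highest value of that whole list. K562 G2 pSIRT1 had its top member at chr10:134633801-134641600 on 10q and late S pSIRT1 at chr11:1092001-1105400 on 11p. HCT116 pMCM2 had it on 11p as well, at chr11:1014401-1019600, with 15851 reads, while the top start sites of the T530A and wild-type rescue clones were wide regions on 17q, chr17:79374001-79454600 with 5718 reads and chr17:80171401-80303600 with 8252 reads. In all lists the top member was among the 19 highest peaks of chromosomes 1-22. The level of these top members in the genomic DNA controls was not analysed here either, those on 1p and 5p included. How reads with several matches were treated there is not known. Whether such high values reflect start sites or bound protein, or the mapping of reads at these places, was not tested.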

How the data were processed

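The deposited files are 21 peak lists, called against sheared genomic DNA of the same line. The submitters' processing notes name hg19, MACS and SICER; the program behind each list, its settings and its handling of reads with several matches were not stated. In 18 lists the authors deposited a whole-number read count per region, on a 200 bp grid (HCT116 pSIRT1 regions end 1 bp short), and the deposited value in the other 3 (H4K16ac, and pSIRT1 of K562 middle S and G2) is a score, as judged from the values. These units were inferred from the files. The counts sum to 563564 to 19897024 reads in regions per list, so sparse lists (24416 pMCM2 regions in K562 G1) give less precise values. Depth outside regions is unknown.

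The members and lists were chosen with earlier results of these data known. Arms were split at the longest stretch without a peak in any list. On chromosomes 13, 14, 15 and 22 that stretch was under 1 Mb and the long arm was taken from the first coordinate, a rule added after the data were seen. Density, median width, value percentile within a list and overlap (at least 1 bp) were computed for ends and rest with Python 3.11.15, numpy 2.4.6 and pandas 2.3.3, and checked on simulated lists. Intervals are 95% Wilson intervals, that of the density ratio from the share of peaks at the ends, and cover counting error only. With 1 library per group no test was made. Ends named are the 6 highest and 6 lowest by median ratio, and peaks named are each list's highest member and the 5 joined regions with the most lists, ties by mean percentile; 5p, 10q and 16p were added after their values were seen. Chromosomes X and Y, and the control libraries, were not used. Gene order is RefSeq GRCh38.p14. Alternatives varied the window, comparison, peak set, merging, thresholds and overlap rule. No sequence is shown, as no hg19 genome was used here.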

Additional observations from a re-analysis of the deposited data

Results flagged for a closer look

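Start-site density at the ends lay on opposite sides of that of the arms in the 2 lines. All 4 HCT116 lists had a ratio above 1 over the 39 ends together and all 3 K562 lists one below 1. The lowest HCT116 ratio exceeded the highest K562 ratio by 0.385. Among the 12 ends named by rank, the same split appeared at 7p, where the lowest HCT116 ratio exceeded the highest K562 ratio by 1.02, and at 7q, where it did so by 0.998. At 18p the direction was turned round: all HCT116 ratios were below 1 and all K562 ratios above 1, and the highest HCT116 ratio minus the lowest K562 ratio was -0.356. These differences were not tested, since each list is 1 library. The lines also differ in how cells were taken, unfractionated in HCT116 and S-phase fractions in K562, and line and fraction cannot be told apart.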

How the results depend on the processing

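No paired analysis was possible because each group has 1 library and no test was made; for the same reason no replicate could be left out. The number of lists denser at the ends was 18 of 21 under all alternatives on the full set, and 15 of 18 without the 3 score lists. Each list's density ratio stayed on its side of 1 in 11 of 11 alternatives. For K562 middle S start sites this was by little: the ratio was 0.991 with the higher-scoring 50% of peaks, against 0.829 with all. For late S the same setting gave 0.855, against 0.706. Early S reached at most 0.816, with a 1 Mb window. The count of dense ends was 444 of 819 and lay between 429 and 524 under other windows, arms, peak sets and merging of the 39 ends and 21 lists, but was 287 with a 2-fold threshold. It was 402 without chromosomes 5 and 21 and 360 without the score lists, both over fewer values. Start sites overlapped ChIP peaks more often at the ends in 45 of 45 pairs under every rule of overlap. The fold of shared bases, which divides out the covered share, was higher at the ends in 5 pairs. Its ceiling is lower where lists cover more. Wider peaks at the ends were found in 15 lists, in 10 with the higher-scoring 50% of peaks and in 21 by mean width. The percentile was higher in 21 lists and in 18 per kb, in some of these by little. Leaving out the score lists, and splitting chromosomes 13, 14, 15 and 22 at their longest stretch (442 dense ends), were chosen after seeing the data. Of single values, 102 of 231 density ratios, 108 of 450 overlap shares, 56 of 168 percentiles and 53 of 168 widths moved beyond their counting interval. List length, which differs between 23671 and 226674 peaks, limits every comparison between lists.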
